A study of Mus musculus with 12 samples.

Results

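The genes examined here encode receptors for the inhibitory transmitters GABA and glycine, together with proteins that place these receptors at synapses. They are 27 named genes of a table of 57073 gene models: 15 subunits of GABA-gated chloride channels, of which 3 are rho subunits, the 2 GABA-B receptor subunits, 5 glycine receptor subunits and 5 scaffold, adhesion or trafficking genes. They were chosen by name, with earlier results of these data known. Each name had 1 row in the table, and some subunits of these families are not among them. Whole retinas of C57BL/6 mice at postnatal day 17 were profiled by sequencing of poly-A RNA in 12 libraries. Of these, 6 came from mice kept in normoxic air and 6 from mice labelled with oxygen-induced retinopathy (OIR) under 75% oxygen. Such exposure of pups obliterates capillaries of the central retina, which turns hypoxic once the animals breathe ordinary air again. All animals were of the same labelled strain and age, with no transgene or deletion named. Whether each library is a separate animal is not said, so p-values cover only the spread among these libraries, part of which may be technical.

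GABA-A receptors are chloride channels of 5 subunits, usually drawn from alpha and beta subunits with a gamma or delta subunit, and they carry fast inhibition. The rho subunits form a separate, slow and sustained GABA channel that is best known from the axon terminals of retinal bipolar cells. Glycine receptors pair alpha subunits with the beta subunit, which binds the scaffold gephyrin, and GABA-B receptors are G protein-coupled pairs. In the retina, amacrine cells release GABA or glycine onto bipolar cells, ganglion cells and each other, and horizontal cells are a further source of GABA.

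Total counts per library were 17361979 to 19390627 in the normoxic group and 17366045 to 21594618 in the OIR group. Levels are given as the authors' FPKM (fragments per kilobase, scaled to depth), so that genes can be set side by side. The gene length implied by FPKM was 2286 bases for Gabrr1, equal to its deposited length. For Gabrr2, Gabarap and Hap1 the implied length was 2105, 1844 and 3766 bases, against deposited lengths of 5167, 3487 and 7550. The order of levels between genes therefore depends on the length used. Differences are log2 fold changes, OIR minus normoxic, from edgeR's quasi-likelihood test over 18275 genes with Benjamini-Hochberg adjustment, called at an adjusted p below 0.05. Rod markers, the defining genes of the most common retinal cell, summed to 7738 to 8598 FPKM in normoxic and 8469 to 9357 FPKM in OIR libraries. Within the normoxic group, 9.51% of genes were called lower and 9.69% higher in replicates 4 to 6 than in replicates 1 to 3, so values within each set of numbers are given where they differ. The labels do not name what separates the sets.

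Most of these receptor genes were lower in the OIR retina. Of the 27 genes, 26 passed the filter on low counts, and 20 of them fell, 1 rose and 5 did not pass the test. Over all genes tested, 14.8% were called lower and 16.2% higher, 31.0% in either direction. The median log2 fold change was -0.46 over the 26 genes and -0.01 over all genes tested. In 15 of the 26, every OIR library lay below every normoxic one, as in 7.31% of all genes tested, and in none did every OIR library lie above (9.12% of all genes, 16.4% for both directions together). Glra1 reached the filter's count level in 2 of the 6 OIR libraries and entered the test through its normoxic level, so its inclusion depended on the group where it was higher. Gabrq, which was not called, reached that level in 4 of the 6 OIR libraries. Gabre, also not called, had 4 to 24 counts in normoxic and 12 to 20 counts in OIR libraries. All 6 OIR libraries reached the filter's level for Gabre but not all normoxic ones, so its inclusion depended on its OIR level. Within replicate numbers 1 to 3, 19 of these genes were called lower (18.6% of all genes), and within 4 to 6, 14 were (8.36%).

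**Figure D1:**
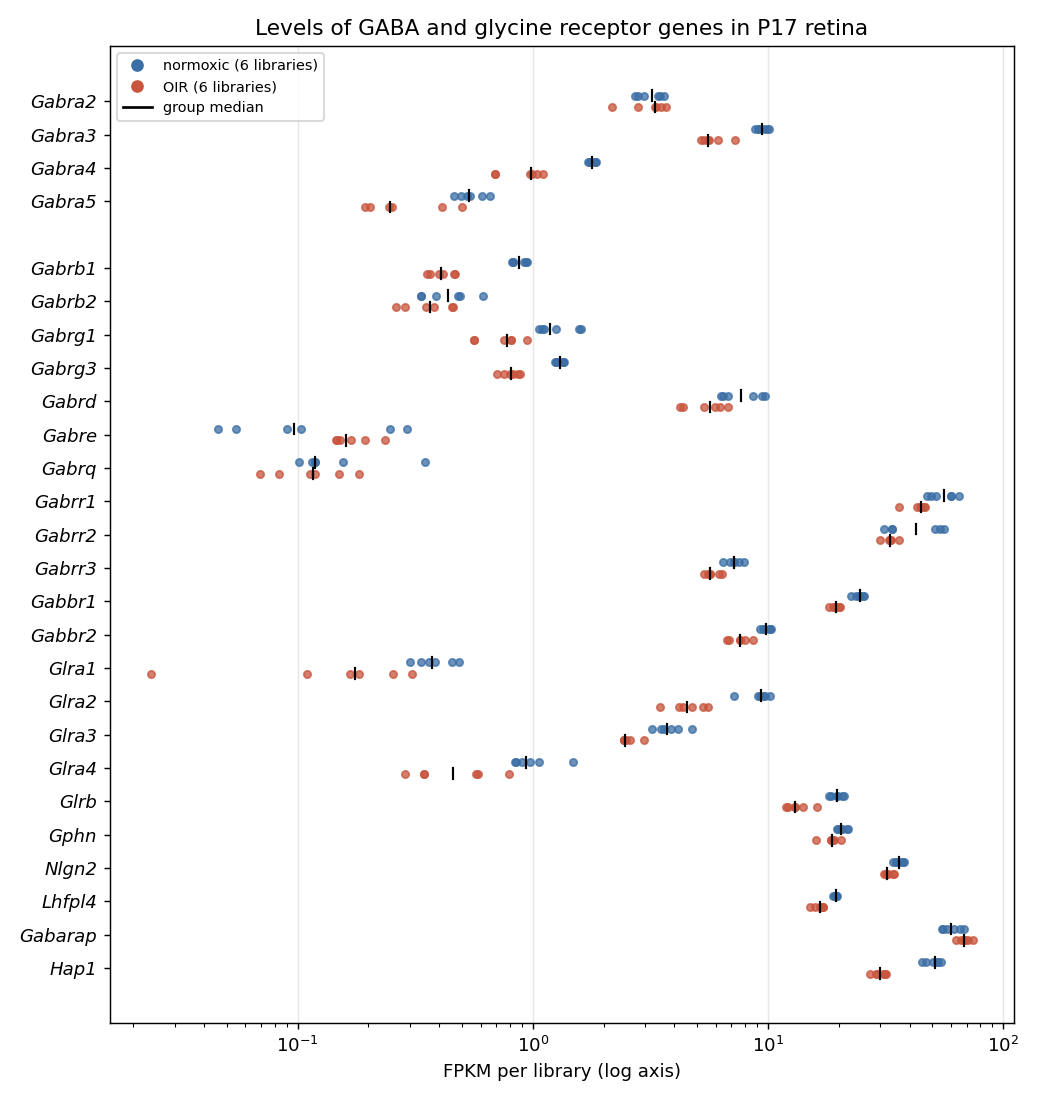
FPKM of each gene in each of the 12 libraries on a log axis, with normoxic libraries in blue, OIR libraries in red and a black tick at each group's median; Gabra6, counted once in all, is left out. The rho subunit genes Gabrr1 and Gabrr2 and the trafficking genes Gabarap and Hap1 have the highest mean levels in the normoxic libraries, while Gabre and Gabrq stay below 0.4 FPKM in every library.

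Levels spanned a wide range between subunits. In normoxic libraries the highest were those of Gabarap at 60.6 ± 5.45 FPKM, Gabrr1 at 55.6 ± 6.93 FPKM, Hap1 at 50.4 ± 3.53 FPKM and Gabrr2 at 43.3 ± 11.5 FPKM (mean ± SD, n = 6). Among the alpha subunit genes listed here, Gabra3 was highest at 9.45 ± 0.516 FPKM, above Gabra2 at 3.17 ± 0.372 FPKM. Gabra6, an alpha subunit gene best known from cerebellar granule cells, had 1 count in the normoxic group and 0 counts in the OIR group. A count of 0 in the 6 OIR libraries together allows up to 0.0108 FPKM, so no fold change is given.

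All 5 glycine receptor genes were called lower, though Glra1 entered the test through its normoxic level. Glra2, which encodes an alpha subunit widespread among retinal neurons, was at 7.20 FPKM in the lowest, 9.36 in the median and 10.2 in the highest normoxic library. In the OIR libraries Glra2 was at 3.47, 4.55 and 5.54 FPKM. The groups did not overlap. Glra2 fell by 49.3%, a log2 fold change of -0.98 ± 0.11 (SE; edgeR adjusted p = 1.61e-06). Glra3, an alpha subunit gene of glycinergic synapses on amacrine cells, was at 3.20, 3.73 and 4.77 FPKM in normoxic and at 2.44, 2.47 and 2.97 FPKM in OIR libraries. It fell by 33.0% (edgeR adjusted p = 4.38e-05), again without overlap, and OIR replicate 4 was its highest OIR library. Glrb, the beta subunit gene whose product anchors the receptor to gephyrin, ranged from 18.2 to 21.0 FPKM around a median of 19.6 in normoxic libraries. In OIR libraries Glrb ranged from 12.0 to 16.2 FPKM around a median of 13.1, and it fell by 31.1% without overlap (edgeR adjusted p = 1.15e-05).

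The other 2 alpha subunit genes were scarce. Glra4 was at 0.840 to 1.49 FPKM in normoxic and 0.286 to 0.796 FPKM in OIR libraries (log2 fold change -1.05 ± 0.27 SE, edgeR adjusted p = 0.00545). Its gene model lies wholly across a model on the opposite strand, BC065397, with 439 counts against the 332 of Glra4, and with no strand setting known its reads are uncertain. The call of Glra4 was lost within numbers 4 to 6 (adjusted p = 0.141). Glra1, the alpha subunit gene of spinal cord and of fast glycinergic synapses, had 103 counts in the normoxic and 48 counts in the OIR group. Its log2 fold change was -1.11 ± 0.36 (SE, edgeR adjusted p = 0.0249), and OIR replicate 5 held a single count. The adjusted p of Glra1 was 0.0557 without normoxic replicate 1 and 0.058 without OIR replicate 4. Within numbers 1 to 3 its call was lost (log2 fold change -0.70, adjusted p = 0.217; -1.76 and 0.0401 within 4 to 6).

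Within a library, the FPKM of Glra2 divided by that of Glrb was 0.396 to 0.517 in normoxic and 0.285 to 0.423 in OIR libraries, with medians of 0.470 and 0.339. The ratio of Glra3 to Glrb had medians of 0.197 and 0.193. Glra2 was therefore lower relative to Glrb in the median OIR library, while the medians of the ratio for Glra3 were close. These ratios were not tested.

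The promoters of the 3 abundant glycine receptor genes and of Hap1, the gene with the smallest adjusted p of the 27, are shown as examples. They are among the 15 genes that fell without overlap between the groups, and the others are not shown. Each sequence is the 250 bases before the annotated start site, 5′ to 3′ on the gene's strand, from RefSeq in build GRCm38.p6, a build other than that of the counts. Capitals mark ACGTG or its reverse complement CACGT, the core of the motif bound by hypoxia-inducible factors, which also lies inside the E-box CACGTG.
Glra2, chrX:165327394-165327643, minus strand: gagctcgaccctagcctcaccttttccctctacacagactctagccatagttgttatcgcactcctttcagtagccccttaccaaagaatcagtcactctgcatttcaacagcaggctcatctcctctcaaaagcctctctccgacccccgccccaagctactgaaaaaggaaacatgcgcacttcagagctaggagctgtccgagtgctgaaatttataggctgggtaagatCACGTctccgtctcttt
Glra3, chr8:55940168-55940417, plus strand: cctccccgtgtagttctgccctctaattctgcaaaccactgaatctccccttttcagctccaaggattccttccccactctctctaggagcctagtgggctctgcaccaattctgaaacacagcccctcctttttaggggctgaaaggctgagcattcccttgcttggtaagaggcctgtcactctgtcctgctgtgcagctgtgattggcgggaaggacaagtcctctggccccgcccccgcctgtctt
Glrb, chr3:80913661-80913910, minus strand: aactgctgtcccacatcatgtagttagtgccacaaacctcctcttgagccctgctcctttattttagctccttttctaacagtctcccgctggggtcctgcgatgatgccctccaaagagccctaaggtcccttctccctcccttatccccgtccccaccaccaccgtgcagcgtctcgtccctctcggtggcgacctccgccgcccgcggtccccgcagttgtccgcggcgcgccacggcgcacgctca
Hap1, chr11:100356129-100356378, minus strand: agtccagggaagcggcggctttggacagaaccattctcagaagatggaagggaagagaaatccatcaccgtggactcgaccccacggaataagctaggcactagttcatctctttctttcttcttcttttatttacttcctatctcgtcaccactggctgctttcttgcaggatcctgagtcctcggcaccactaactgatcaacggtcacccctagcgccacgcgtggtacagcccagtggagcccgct
Of these windows, that of Glra2 held 1 match to ACGTG or CACGT and the others held none. The windows of Glrb and Hap1 hold GCGTG or its reverse complement CACGC, which was not counted. RefSeq promoters were matched for 25 of the 27 genes by symbol, in 30 windows. A match to ACGTG on either strand was found in 6 of the 30 windows (20%), in 5 genes, against 16.6% of 32851 windows of all genes. None of the 30 held the full E-box, which 6.02% of all windows did. GGGCGG or its reverse complement, the core of the GC box, was present in 15 of the 30 windows (50%) and in 32.7% of all windows. The windows of Glrb and Glra3 each held 1 GC box core, as did that of Glra2, and that of Hap1 held none. A match is a description of these letters and not evidence of binding.

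Among GABA-A alpha subunits, 3 of the 4 tested genes fell and Gabra2 did not pass the test. Gabra3 was at 8.80, 9.39 and 10.1 FPKM in the lowest, median and highest normoxic library and at 5.17, 5.58 and 7.27 FPKM in the OIR libraries. It fell by 37.7% without overlap (log2 fold change -0.68 ± 0.08 SE, edgeR adjusted p = 3.43e-06). Gabra4, whose product often pairs with the delta subunit in extrasynaptic receptors, was tightly grouped in normoxic libraries at 1.71, 1.79 and 1.86 FPKM. In OIR libraries Gabra4 was at 0.690, 0.981 and 1.10 FPKM, all below normoxic, and it fell by 48.4% (edgeR adjusted p = 9.01e-06). Gabra5, an alpha subunit gene of extrasynaptic receptors, had 180 and 99 counts in the 2 groups (edgeR adjusted p = 0.0179), and 1 OIR library reached 0.501 FPKM, inside the normoxic range of 0.464 to 0.659. Its model overlaps a far more highly counted model on the opposite strand, and the call was lost within numbers 4 to 6 (adjusted p = 0.281).

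Gabra2, the alpha subunit gene of receptors at synapses on axon initial segments and cell bodies, was at 2.73, 3.20 and 3.60 FPKM in the lowest, median and highest normoxic library and at 2.16, 3.32 and 3.69 FPKM in OIR libraries. Its log2 fold change was -0.01, with a 95% interval of -0.24 to 0.23. The intervals of Gabra4 (-1.21 to -0.70) and Gabra3 (-0.85 to -0.51) lay wholly below it, though the difference between genes was not tested. Within a library, the FPKM of Gabra4 divided by that of Gabra2 was 0.500 to 0.672 in normoxic and 0.197 to 0.346 in OIR libraries. The FPKM of Gabra3 divided by that of Gabra2 was 2.78 to 3.32 and 1.40 to 2.59. Neither ratio overlapped between the groups.

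**Figure D2:**
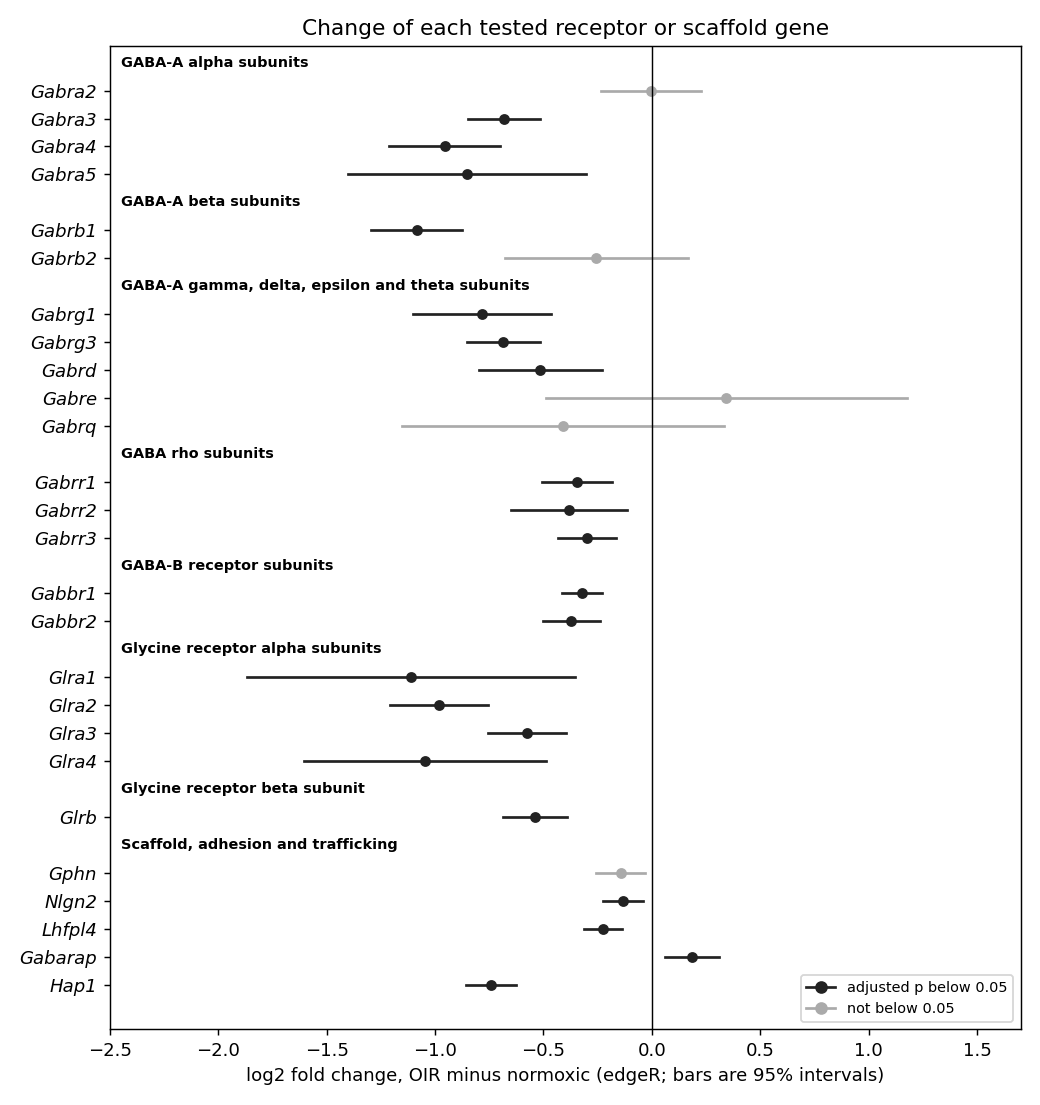
Log2 fold change of each of the 26 tested genes, OIR minus normoxic, as points with 95% intervals from the edgeR fit, grouped by role; black marks an adjusted p below 0.05 and grey the rest. Glra1, which entered the test through its normoxic level, lies farthest to the left, followed by Gabrb1, Glra4, Glra2 and Gabra4. Gabra2 sits at zero and Gabarap is the single called gene to the right.

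Of the 2 beta subunit genes, Gabrb1 fell. It was at 0.815, 0.873 and 0.944 FPKM in the lowest, median and highest normoxic library and at 0.355, 0.407 and 0.465 FPKM in the OIR libraries. The groups were far apart, and Gabrb1 fell by 52.8% (log2 fold change -1.08 ± 0.10 SE, edgeR adjusted p = 1.87e-07). Beta subunits form part of the GABA binding site and anchor the receptor. Gabrb2 had 307 and 260 counts, with a log2 fold change of -0.26 and a 95% interval of -0.68 to 0.16. Its direction differed between the sets, at 0.17 within numbers 1 to 3 and -0.70 within 4 to 6, neither of which passed the test.

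Of the gamma, delta, epsilon and theta subunit genes, 3 of 5 fell. Gabrg3, a rarer gamma subunit gene, was at 1.25 to 1.36 FPKM in normoxic and 0.704 to 0.882 FPKM in OIR libraries and fell by 37.8% (edgeR adjusted p = 3.54e-06). Gabrg1 was at 1.06, 1.19 and 1.60 FPKM in the lowest, median and highest normoxic library and at 0.561, 0.779 and 0.946 FPKM in the OIR libraries. Gabrg1 fell by 42.0% (edgeR adjusted p = 6.05e-04) without overlap. Gabrd, the delta subunit gene of extrasynaptic receptors with tonic currents, fell by 30.0% (edgeR adjusted p = 0.00705) with overlapping groups, and its call was lost within numbers 4 to 6 (log2 fold change -0.13, adjusted p = 0.444; -0.86 within 1 to 3). Gabre and Gabrq, the epsilon and theta subunit genes, had 70 to 94 counts per group and were not called. The 95% interval of the log2 fold change was -0.49 to 1.18 for Gabre and -1.15 to 0.33 for Gabrq, so changes beyond 1.5-fold in one direction could not be told from none at this depth.

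Several of these genes are neighbours in the genome (build GRCm39). On chromosome 5, Gabrg1 (70908390 to 70999960), Gabra2 (71114940 to 71253192), Gabra4 (71727092 to 71815651) and Gabrb1 (71815456 to 72306380) follow each other. In this cluster Gabrg1, Gabra4 and Gabrb1 fell, and Gabra2 between them did not pass the test. Gabra4 and Gabrb1 lie head to head on opposite strands and share 196 bases at their starts, which is a small part of either model, and both fell. On the X chromosome, Gabra3 (71476287 to 71700454) fell between Gabre (71299605 to 71318409) and Gabrq (71868784 to 71886208), neither of which was called. On chromosome 7, Gabrg3 (56366213 to 57036936) and Gabra5 (57057420 to 57159807) both fell. On chromosome 11, Gabrb2 (42310584 to 42519855) was not called and its neighbour Gabra6 (42197264 to 42211899) was not counted at a testable level. On chromosome 4, the rho genes Gabrr2 (33062999 to 33095865) and Gabrr1 (33132521 to 33163588) are neighbours, and Gabrr3 lies apart on chromosome 16 (59227695 to 59284867). Of the glycine receptor genes, Glra2 (163912013 to 164110389) and Glra4 (135658423 to 135680890) are on the X chromosome, Glra3 on chromosome 8 (56393495 to 56583105), Glrb on chromosome 3 (80750906 to 80820967) and Glra1 on chromosome 11 (55405064 to 55499024).

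The rho subunit genes were all called lower, but 2 of them differed between the sets of replicate numbers. Gabrr1 was at 60.1 to 64.7 FPKM in normoxic replicates 1 to 3 and at 47.7 to 51.9 FPKM in normoxic replicates 4 to 6. In OIR it was at 36.3 to 46.4 FPKM in replicates 1 to 3 and at 42.9 to 46.2 FPKM in 4 to 6. All 6 OIR libraries were below all 6 normoxic ones, and Gabrr1 fell by 21.3% (edgeR adjusted p = 0.00208). Its log2 fold change was -0.54 within numbers 1 to 3 and -0.13 within 4 to 6, where it did not pass (adjusted p = 0.117).

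Gabrr2 parted further. It was at 51.4 to 56.0 FPKM in normoxic replicates 1 to 3, while normoxic replicates 4 to 6, at 31.3 to 33.8 FPKM, overlapped the OIR libraries, at 29.9 to 35.9 FPKM. Over all libraries Gabrr2 fell by 23.3% (edgeR adjusted p = 0.0288), a call that rested on normoxic replicates 1 to 3. The log2 fold change of Gabrr2 was -0.71 within numbers 1 to 3 (adjusted p = 8.1e-09) and 0.03 within 4 to 6 (adjusted p = 0.787). The adjusted p over all libraries lay between 0.0528 and 0.0771 without any one of normoxic replicates 1, 2 and 3 or OIR replicates 1 and 2. Gabrr3, the third rho gene, was at 6.44, 7.18 and 7.93 FPKM in the lowest, median and highest normoxic library and at 5.37, 5.66 and 6.36 FPKM in OIR libraries. Gabrr3 fell by 18.7% (edgeR adjusted p = 0.00125), with log2 fold changes of -0.27 and -0.33 within the 2 sets.

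Gabrd followed the pattern of Gabrr1 and Gabrr2, at 8.66 to 9.67 FPKM in normoxic replicates 1 to 3 and 6.34 to 6.76 FPKM in normoxic replicates 4 to 6, against 4.23 to 6.74 FPKM in OIR. The test of the difference itself, an interaction of group with set of numbers in edgeR chosen after seeing the data, passed for Gabrr2 (adjusted p = 1.2e-05), Gabrr1 (adjusted p = 0.0111) and Gabrd (adjusted p = 0.0174). These are 3 of the 26 genes, beside 8.21% of all genes tested. In each of the 3 the OIR effect was nearer to zero, and so more positive, in numbers 4 to 6 (4.21% of all genes). Between the normoxic sets alone, the genes were lower in replicates 4 to 6 by log2 differences of -0.71 for Gabrr2, -0.51 for Gabrd and -0.31 for Gabrr1, each called, as were 9.51% of all genes in that direction. Gabarap was the reverse, higher in normoxic replicates 4 to 6 by 0.21 (adjusted p = 0.00966), as were 9.69% of all genes.

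**Figure D3:**
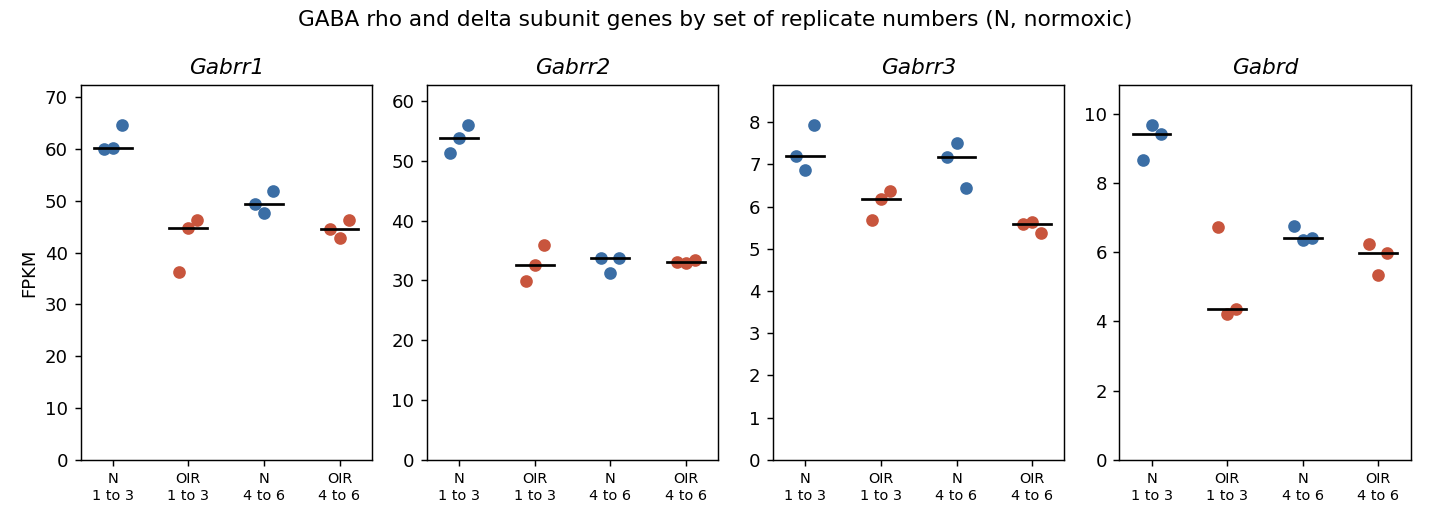
FPKM of Gabrr1, Gabrr2, Gabrr3 and Gabrd in single libraries (points, axis from 0) by group and set of replicate numbers, with a black line at each median of 3 libraries. For Gabrr2 normoxic replicates 1 to 3 stand alone at 51.4 to 56.0 FPKM and the other 9 libraries lie between 29.9 and 35.9 FPKM, while Gabrr3 is lower in OIR within both sets.

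Both GABA-B receptor genes fell by similar amounts. Gabbr1 (chromosome 17, 37356858 to 37385959), which encodes the subunit that binds GABA, was at 22.6, 24.5 and 25.6 FPKM in the lowest, median and highest normoxic library and at 18.3, 19.4 and 20.2 FPKM in OIR libraries. It fell without overlap (log2 fold change -0.32 ± 0.04 SE, edgeR adjusted p = 2.13e-05). Gabbr2 (chromosome 4, 46662305 to 46991873), which encodes the subunit that couples to the G protein, was at 9.27, 9.83 and 10.3 FPKM in normoxic and 6.69, 7.58 and 8.65 FPKM in OIR libraries. It fell by 22.7% (edgeR adjusted p = 1.59e-04), also without overlap.

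The scaffold, adhesion and trafficking genes went different ways. Hap1 (chromosome 11, 100238153 to 100246954), which encodes a huntingtin-associated adaptor for the motor transport of GABA-A receptors, was at 45.4, 51.5 and 54.3 FPKM in normoxic and 27.2, 30.1 and 31.8 FPKM in OIR libraries. It fell by 40.2% (log2 fold change -0.74 ± 0.05 SE, edgeR adjusted p = 1.26e-08), with a wide gap between the groups. Lhfpl4, which encodes a membrane partner that brings GABA-A receptors to neuroligin, was at 18.8 to 19.6 FPKM in normoxic and 15.1 to 17.1 FPKM in OIR libraries. It fell by 14.5% (edgeR adjusted p = 3.9e-04). Nlgn2, the adhesion gene of inhibitory synapses, fell by 8.95% (edgeR adjusted p = 0.0246) with ranges of 34.1 to 38.0 and 31.3 to 34.4 FPKM that touched. The adjusted p of Nlgn2 was 0.0524 without normoxic replicate 1, 0.0566 without normoxic replicate 3, 0.0553 without OIR replicate 1 and 0.507 within numbers 4 to 6.

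Gphn, which encodes gephyrin, the scaffold under glycine and many GABA-A receptors, was at 19.6, 20.5 and 21.9 FPKM in the lowest, median and highest normoxic library and at 16.1, 18.8 and 20.5 FPKM in OIR libraries. Its log2 fold change of -0.14 ± 0.05 (SE) did not pass (edgeR adjusted p = 0.0514), though it did with median-of-ratios factors (0.0466), with library totals (0.0413) and in DESeq2 (0.0374), and without OIR replicate 4 (0.0259) or 6 (0.0435). Within a library the FPKM of Glrb divided by that of Gphn was 0.904 to 1.01 in normoxic and 0.631 to 0.846 in OIR libraries, without overlap. Gabarap, a ubiquitin-like protein gene named for its binding to the GABA-A receptor and also part of autophagy, was the gene that rose. It was at 54.8, 59.8 and 68.1 FPKM in normoxic and 63.1, 68.3 and 74.2 FPKM in OIR libraries, overlapping ranges with a rise of 13.8% (edgeR adjusted p = 0.0214). The call was lost within numbers 4 to 6 (0.181) and without normoxic replicate 1 (0.0566), 2 (0.0508) or 3 (0.0541) or OIR replicate 5 (0.0565).

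Summed over the genes of a role, the levels of most roles parted. The glycine alpha genes summed to 12.1 to 15.9 FPKM in normoxic and 6.65 to 8.87 FPKM in OIR libraries. The listed GABA-A alpha genes summed to 14.2 to 16.1 and 8.39 to 11.5 FPKM, and the GABA-B genes to 32.8 to 35.2 and 25.1 to 28.8 FPKM. The rho genes summed to 86.5 to 129 FPKM in normoxic and 71.8 to 88.7 FPKM in OIR libraries, which overlapped. These sums are descriptions without a test.

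The other genes of GABA and glycine signalling were followed in a list of 59 genes outside the 27. Of 58 tested, 26 fell (44.8%), 9 rose (15.5%) and 23 did not pass, with a median log2 fold change of -0.15. Over all genes tested, 14.8% were called lower and 16.2% higher, so the share that rose was near that of all genes. All 5 genes of synthesis, vesicle loading and breakdown fell. Gad1, which encodes the larger of the enzymes that make GABA, fell from 38.0 ± 5.43 to 23.0 ± 2.79 FPKM (mean ± SD, n = 6; edgeR adjusted p = 1.24e-05). Gad2, which encodes the smaller one, fell from 7.10 ± 0.385 to 6.25 ± 0.517 FPKM (edgeR adjusted p = 0.0408), and this call was lost in 10 of 23 alternative settings. Slc32a1, the vesicular transporter gene of both transmitters, fell by 25.4% (edgeR adjusted p = 6.93e-04; 0.187 within numbers 4 to 6). The others were Abat and Aldh5a1, which encode enzymes of GABA breakdown, with log2 fold changes of -0.29 and -0.27. Here and below, genes named to complete a count were chosen after their values were seen.

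Of 6 plasma membrane transporter genes, 5 fell, beside 14.8% of all genes tested. Slc6a9, which encodes the glycine transporter of glycinergic amacrine cells, fell from 14.3 ± 1.36 to 10.6 ± 0.494 FPKM (edgeR adjusted p = 2.43e-05). Slc6a11, Slc6a12 and Slc6a5, the last of which encodes the neuronal glycine transporter, also fell, with log2 fold changes of -0.34, -0.62 and -0.50. Slc6a13, a GABA transporter gene, was the one that rose (edgeR adjusted p = 0.0153), from 0.293 to 3.02 FPKM across normoxic libraries to 2.25 to 4.03 FPKM across OIR libraries, which overlap.

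Of 7 tested genes that set the chloride and bicarbonate gradients, 3 rose and 2 fell. Over all genes tested, 16.2% rose and 14.8% fell. Slc12a5, which encodes the neuronal chloride extruder KCC2, fell from 121 ± 19.8 to 94.0 ± 3.44 FPKM (edgeR adjusted p = 0.00266). Slc12a2, which encodes the chloride importer NKCC1, rose from 5.77 ± 0.320 to 6.85 ± 0.678 FPKM (edgeR adjusted p = 0.00262). Neither passed within numbers 4 to 6 (adjusted p = 0.0919 and 0.174). Slc12a4, which encodes the widely expressed potassium-chloride cotransporter KCC1, rose by 127% (edgeR adjusted p = 1.15e-08). Slc12a7, which encodes a further potassium-chloride cotransporter, rose by 39.1%, and Car7, which encodes a cytosolic carbonic anhydrase, fell by 0.41 on the log2 scale (edgeR adjusted p = 0.00183 and 0.0473).

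Among 20 genes of the inhibitory postsynapse and of synaptic adhesion, 11 fell (55%) and 3 rose (15%). Over all genes tested, 14.8% fell and 16.2% rose, so the share that rose was near that of all genes. Insyn1 and Iqsec3, which encode gephyrin-associated proteins, fell by 30.3% and 25.6% (edgeR adjusted p = 6.25e-05 and 6.43e-05). The 3 that rose were Dag1, the dystroglycan gene, Vasp and Pfn1, both actin regulator genes, by 44.2%, 78.9% and 37.9% (edgeR adjusted p = 7.35e-07, 3.53e-07 and 6.53e-06). All 3 are also expressed outside neurons. Of 20 trafficking, signalling partner and cofactor genes, 3 fell (15%), 2 rose (10%) and 15 did not pass. These shares were no higher, or hardly higher, than those of all genes. Kctd12b, a gene related to those of GABA-B auxiliary subunits, rose by 77.1% from 0.768 ± 0.229 FPKM (mean ± SD, n = 6; edgeR adjusted p = 9.79e-04; 0.101 within numbers 4 to 6), and Kctd12, one of those genes, rose by 0.34 on the log2 scale. The 3 that fell were Plcl1 and Plcl2, which encode phospholipase-related proteins that bind GABARAP and GABA-A receptors, and Kif5a, a kinesin motor gene.

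Markers of amacrine, bipolar, ganglion and horizontal cells had negative median log2 fold changes, though not every marker was called. Over all genes tested, 14.8% were called lower. Amacrine cell markers were called lower in 12 of 12, with a median log2 fold change of -0.46 and a summed level of 429 to 522 FPKM in normoxic and 280 to 381 FPKM in OIR libraries. Of these 12, 5 are also in the list of 59 above. Bipolar cell markers were called lower in 10 of 12 (median -0.32, summed 465 to 550 and 344 to 397 FPKM). Ganglion cell markers were called lower in 7 of 12 (median -0.51, summed 302 to 453 and 234 to 330 FPKM), and horizontal cell markers in 3 of 6 (median -0.29, summed 127 to 135 and 89.0 to 122 FPKM). The highest log2 fold change was -0.01 among ganglion and 0.19 among horizontal markers.

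Markers of other cells went in different directions. Rod markers had 2 higher and 0 lower of 8 (median 0.14), and cone markers had 1 lower of 7 (median -0.03). Over all genes tested, 16.2% were called higher and 14.8% lower, near the 14.3% of cone markers called lower. Müller glia markers had 4 lower and 1 higher of 8 (median -0.21, summed 835 to 979 and 680 to 881 FPKM). Microglia markers had 6 of 8 higher (summed 27.3 to 34.7 and 71.0 to 110 FPKM), astrocyte markers 5 of 5 (11.4 to 13.2 and 18.8 to 21.7 FPKM) and endothelial markers 5 of 6 (54.3 to 72.4 and 90.8 to 132 FPKM). Lens markers, a sign of carried-over tissue, had 4 lower and 0 higher of 10 (median -1.16), at 6.88 to 41.4 and 3.73 to 14.2 FPKM summed. Pigment epithelium markers had 0 of 7 called, at 7.05 to 71.9 and 29.7 to 64.1 FPKM summed. No marker in these lists was at 0 counts over all libraries. In whole retina, fewer cells of a type and less RNA per cell cannot be told apart, and the part of these markers in the receptor results was not tested.

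**Figure D4:**
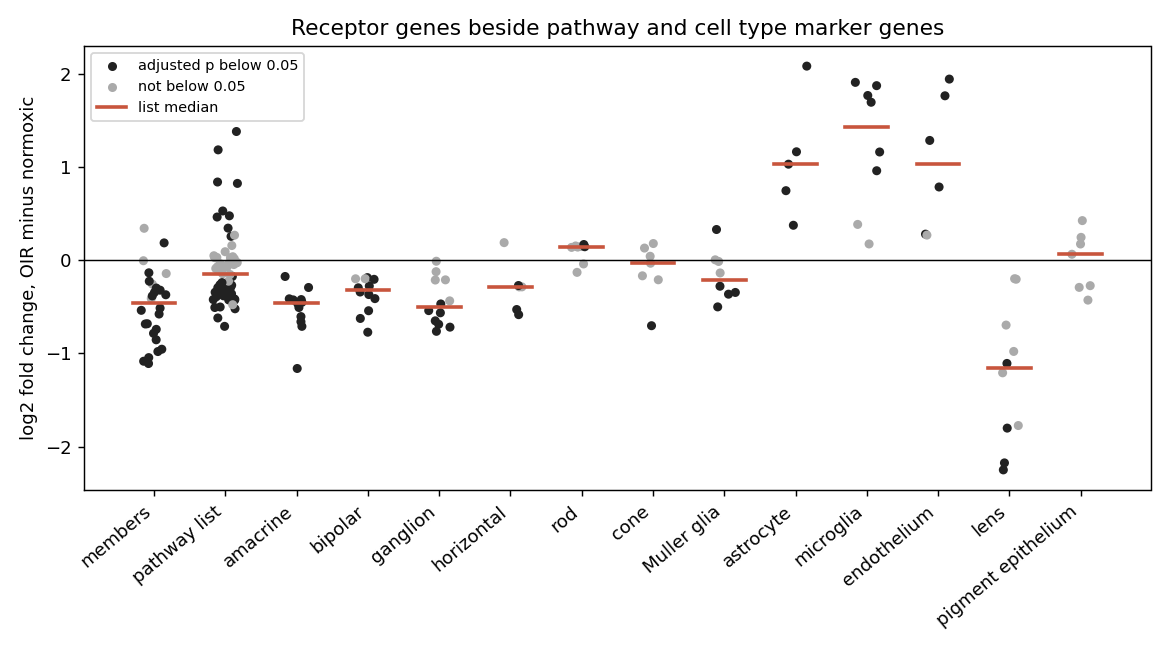
Log2 fold change (OIR minus normoxic) of the 26 tested receptor and scaffold genes (labelled members), of the 58 other GABA and glycine genes and of cell type marker lists, 1 point a gene, black where the adjusted p is below 0.05, with a red line at each list's median. The median of the receptor genes is -0.46, and that of the other GABA and glycine genes is also below zero. So are the amacrine, bipolar, ganglion, horizontal, Müller glia, cone and lens medians, with lens the lowest at -1.16. The astrocyte, microglia, endothelium, rod and pigment epithelium medians are above zero.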

How the data were processed

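RNA was measured in 12 retina libraries, 6 normoxic and 6 OIR, grouped by sample title. Trimmomatic, HISAT2 version 2.0.5, HTSeq and build GRCm39 are named without roles, per the submitters' processing notes. Not given in the sources used here were annotation, strand setting and read filters. The authors deposited whole-number counts per gene and FPKM in 1 table, per the file headers.

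edgeR version 4.0.16 in R version 4.3.3 tested the counts, with filterByExpr (minimum count 10, total 15), TMM scaling, quasi-likelihood test, Benjamini-Hochberg adjustment over all genes. The threshold was an adjusted p of 0.05. The 27 genes and the lists were chosen with earlier results of these data known. All 27 are accounted for. Of the pathway list, the 5 with the smallest adjusted p in each direction and Gad1, Gad2, Slc32a1, Slc6a9, Slc12a5 and Slc12a2 were named; some genes that this rule selects are not reported here. No 2 libraries of a group agreed within counting noise (lowest chi-square per degree of freedom 3.05). Alternatives included DESeq2 version 1.42.0, limma version 3.58.1 on log2(FPKM + 1) and log2(FPKM + 0.1), other filters and scalings, blocks, the sets of replicate numbers and leaving out each library. Overlapping or antisense models are uncertain because the strand setting is not known.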

Additional observations from a re-analysis of the deposited data

Results flagged for a closer look

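In 4 of 52 groups of 6 libraries tested over these genes, 1 library lay far from the other 5, where chance flags about 1 in 20. Gabrq was at 0.346 FPKM in normoxic replicate 2 and at 0.102 to 0.156 FPKM in the other normoxic libraries. Glra4 was at 1.49 FPKM in normoxic replicate 3, above 0.840 to 1.06 FPKM. Glra3 was at 2.97 FPKM in OIR replicate 4, above 2.44 to 2.59 FPKM, and still below every normoxic library. Gabrr1 was at 36.3 FPKM in OIR replicate 1, below 42.9 to 46.4 FPKM.

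The OIR effect differed between replicate numbers 4 to 6 and 1 to 3 by 0.74 on the log2 scale for Gabrr2, 0.73 for Gabrd and 0.40 for Gabrr1 (edgeR interaction test, adjusted p = 1.2e-05, 0.0174 and 0.0111).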

How the results depend on the processing

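Over 23 alternative settings, the count of receptor and scaffold genes called lower stayed between 14 (within numbers 4 to 6) and 21, beside 20 as reported. Leaving out 1 library at a time gave 18 to 21 lower and 0 to 1 higher, and 23 to 26 lower and 8 to 11 higher among the pathway genes. Within numbers 4 to 6, 0 of these genes were called higher and 5 pathway genes were, beside 1 and 9 as reported. The direction changed for Gabra2 (0.12), Gabrq (0.17) and Gabrr2 (0.031) within numbers 4 to 6, and for Gabrb2 (0.17) within numbers 1 to 3; of these Gabrr2 alone was called as reported. Gabra2 ranged from -0.056 to 0.080 when 1 library was left out. With limma on log2(FPKM + 1), Gabrr2 did not pass (adjusted p = 0.108), and without an expression filter Nlgn2 did not (0.0573). The causes were not tested. The block for the replicate number left 20 lower and 1 higher. Same-numbered libraries correlated in their deviations at -0.017 to 0.118, and 2 of 6 matched best with their own number, so the numbers were not taken as pairs. Low counts limit Gabre, Gabrq, Glra1, Glra4 and Gabra5.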
